A study of Mus musculus with 28 samples.

Results

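The genes described here copy the genome before a cell divides, or make the deoxynucleotides that go into the copy. A list of 39 such mouse genes was drawn up by function, and a gene entered if the array's annotation named it by a single symbol. That held for 38 of the 39, among 17097 genes tested in all, and each was read through its brightest probe set, the one with the highest mean log2 intensity over the 26 biological arrays. Chaf1a, the large subunit of chromatin assembly factor 1, was not analysed here. By role, 5 members bind origins, license them or, as Gmnn does, restrain licensing. Another 9 are grouped with the replicative helicase, among them Mcm10, which helps to start the fork. The sliding clamp and its loader hold 6 and the polymerases and primase 7. Single-strand binding and lagging-strand processing hold 5, deoxynucleotide supply holds 5, and Chaf1b assembles chromatin.

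CD4+ T lymphocytes were taken from the spleen of female mice aged 12 weeks. C57BL/6 was the reference strain. B6.Sle1b carries, on that background, the Sle1b interval of chromosome 1, a locus linked to lupus, and Sle1b.BACSlamf6-H1 is the same congenic line with an added bacterial artificial chromosome named for the H1 form of the SLAM receptor Slamf6. In each strain the cells were either unstimulated or cultured on plate-bound antibody against CD3 at 0.1 µg/ml for 4 h or 24 h. That antibody triggers the T cell receptor, and the sources used here mention no other stimulus. No label names cells cultured for 4 h or 24 h without the antibody. Its effect and that of time in culture therefore cannot be told apart in any change from unstimulated cells. All 9 groups hold total CD4+ cells, and nothing distinguishes naive from memory cells in them. There were 3 biological arrays in each of 8 groups and 2 in C57BL/6 at 24 h, where another 2 arrays were labelled technical and kept out of the tests. Nothing in the labels ties the arrays of a group to separate animals, and every p-value measures the spread between these samples, part of which may be technical.

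A resting T cell is not copying its DNA. Once the receptor is triggered it grows, passes the restriction point and enters S phase. The origin recognition complex, Cdc6 and Cdt1 load the MCM helicase onto origins, GINS and Cdc45 switch it on, and primase with DNA polymerase alpha starts each strand. PCNA, placed by the RFC clamp loader, then holds polymerases delta and epsilon on the template, RPA coats the exposed single strand, and Fen1 and Lig1 finish the lagging strand. Ribonucleotide reductase, thymidylate synthase, thymidine kinase and dUTPase provide the building blocks. Many of these genes are textbook targets of E2F transcription factors, which pocket proteins of the retinoblastoma family hold back in resting cells.

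Because the members share this reputation as E2F targets, their promoters are shown first. RefSeq windows of assembly GRCm38.p6, from 250 bases before to 50 bases after the start of transcription, matched 31 of the 38 members. The windows were searched on both strands for 4 E2F-type words, TTTCCCGC, TTTCGCGC, TTTGCCGC and TTTGGCGC, and separately for CCAAT. The E2F-type words can overlap one another, and neither motif contains the other. At least 1 E2F-type word was present in 10 of the 31 (32.3%), against 2.6% of 27025 genes with a window and 2.3% of 32851 windows. CCAAT was present in 19 of the 31 (61.3%), against 41.1% of all genes. The 10 with an E2F-type word were Cdc6, Cdt1, Lig1, Mcm3, Mcm5, Mcm6, Mcm7, Pola1, Pold1 and Rfc3. The 6 stretches below end at or before the start of transcription and run 5′ to 3′ on the gene's strand, with matches to either motif in capitals. Mcm5 and Mcm6 are shown for overlapping E2F-type words on opposite strands, Cdc6 and Pola1 for single ones, Rrm2 for a gene that rose steeply with CCAAT alone, and Rpa1 for the member that fell.
Mcm5: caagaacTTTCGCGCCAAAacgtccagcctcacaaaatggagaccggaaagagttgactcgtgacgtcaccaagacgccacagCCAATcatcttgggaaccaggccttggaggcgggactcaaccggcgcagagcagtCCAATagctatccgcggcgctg
Mcm6: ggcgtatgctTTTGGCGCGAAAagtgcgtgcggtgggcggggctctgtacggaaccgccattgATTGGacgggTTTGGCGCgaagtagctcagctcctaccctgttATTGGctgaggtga
Cdc6: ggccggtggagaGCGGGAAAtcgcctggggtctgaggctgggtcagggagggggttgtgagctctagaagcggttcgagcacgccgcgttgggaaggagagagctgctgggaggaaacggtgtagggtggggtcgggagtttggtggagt
Pola1: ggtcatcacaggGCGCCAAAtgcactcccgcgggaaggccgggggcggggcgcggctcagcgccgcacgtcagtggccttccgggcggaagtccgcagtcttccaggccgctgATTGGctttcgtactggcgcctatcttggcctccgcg
Rrm2: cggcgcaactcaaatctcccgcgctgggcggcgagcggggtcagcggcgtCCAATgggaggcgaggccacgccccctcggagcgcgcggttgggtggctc
Rpa1: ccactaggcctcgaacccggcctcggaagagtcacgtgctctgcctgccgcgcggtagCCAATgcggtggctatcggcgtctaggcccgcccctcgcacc

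These stretches lie at chr8:75109349-75109508, plus strand (Mcm5), chr1:128359706-128359825, minus strand (Mcm6), chr11:98908001-98908150, plus strand (Cdc6), chrX:93632156-93632305, minus strand (Pola1), chr12:24708154-24708253, plus strand (Rrm2) and chr11:75348384-75348483, minus strand (Rpa1). In the Mcm5 window the pair of words began 153 and 149 bases before the start of transcription, and in Mcm6 a like pair began 110 and 106 bases before it, with a further word 47 bases before. A match of letters is a description of the window and does not show that a factor binds there. The 24 h responses of members with and without a word had near medians. The median log2 change over the mean of the 3 strains was 1.93 for the 10 members with an E2F-type word and 1.99 for the 21 without. Both sets were wide, from 0.13 (Cdt1) to 3.09 (Cdc6) with a word and from -0.56 (Rpa1) to 2.92 (Rrm2) without.

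The deposited values are linear RMA intensities, of which log2 was taken, so a difference of 1 is a doubling. Differences come from a limma fit over all 26 biological arrays, each a log2 value ± its standard error (SE). A call means that the Benjamini-Hochberg adjusted p over all 17097 genes was under 0.05. All 38 members lay above background in every group. The 75th percentile of intensity ran from 34.2 to 53.3 over the arrays, and 3 arrays were treated as dim, namely C57BL/6 unstimulated array 2 (34.8), B6.Sle1b unstimulated array 3 (35.6) and Sle1b.BACSlamf6-H1 4 h array 2 (34.2). Array 3 of B6.Sle1b at 24 h, also at 35.6, was as low and was not among the 3. Over the 5157 genes with a mean log2 above 6, the SD of the difference between the 2 biological arrays of C57BL/6 at 24 h was 0.22, and it was 0.13 to 0.25 for pairs that include a technical array. In the other groups it ran from 0.15 to 0.62 between arrays of a group. Of the 7 T cell markers measured, including Cd3d, Cd3e, Cd3g and Cd4, none lay at background in any group, and their mean log2 intensity was 9.16 to 9.70 over the groups. Cd8a lay between 2.94 and 3.11 as group means, close to the array background of 2.76 to 3.21. Cd8b1, the other CD8 T cell marker measured, lay between 4.82 and 5.44, above background in every group.

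The time course compares unstimulated cells with cells held on the antibody, without a culture control. By 24 h nearly the whole replication machinery had risen in all 3 strains. In C57BL/6, 36 of the 38 members were called higher against unstimulated cells, where 15.7% of all genes were. The same 36 were called higher in B6.Sle1b (all genes 14.8%) and in Sle1b.BACSlamf6-H1 (all genes 17.2%). Of the other two, Rpa1 was called lower in each strain (all genes 8.60%, 13.4% and 11.9%) and Cdt1 was not called in any. The median log2 change of the 38 was 2.00, 1.69 and 1.95 in C57BL/6, B6.Sle1b and Sle1b.BACSlamf6-H1, against 0.04, 0.07 and 0.06 for all genes. In every strain the 24 h arrays of the 36 lay above all unstimulated arrays without overlap, as was so for 24.9%, 21.0% and 27.4% of all genes. Among the 100 largest rises of all genes stood 10 members in B6.Sle1b and 8 in each of the other strains. In RNA from a whole population, more cells in S phase and more message per cell cannot be told apart.

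Hardly any of this was visible at 4 h. In C57BL/6, 1 member was called higher (all genes 4.08%) and 1 lower (all genes 2.97%). In B6.Sle1b none was called higher (all genes 2.57%) and 4 were called lower (all genes 3.12%), and in Sle1b.BACSlamf6-H1 none was called higher (all genes 4.22%) and 4 lower (all genes 6.35%). At an unadjusted p under 0.05 there were 7, 13 and 13 members in the 3 strains, where 15.7%, 14.3% and 23.2% of all genes passed, so that the count in C57BL/6 was near the background. With array weights, which let arrays that deviate count for less, 25 members were called lower in B6.Sle1b (all genes 16.8%) and 3 in each direction in C57BL/6 (all genes 14.7% higher and 13.1% lower). In Sle1b.BACSlamf6-H1 they gave 0 higher and 4 lower (all genes 3.19% and 4.40%). These weights had not fully converged, and array 1 of unstimulated B6.Sle1b carried the largest, 8.71. With equal weights the median change was -0.07, -0.29 and -0.23, against 0.03, -0.01 and 0.04 for all genes, and 19 members had a fitted value below 0 in all 3 strains. Between 4 h and 24 h, 37 members were called higher in C57BL/6 (all genes 12.0%), 37 in B6.Sle1b (all genes 13.1%) and all 38 in Sle1b.BACSlamf6-H1 (all genes 16.9%), with Cdt1 the exception in C57BL/6 and B6.Sle1b. For all 38 the 24 h arrays lay above the 4 h arrays without overlap in every strain (all genes 24.0%, 23.8% and 22.7%). The larger part of the members' rise therefore took place between 4 h and 24 h, an interval in which no other time was sampled. At 4 h, 5 members had a fitted value above 0 in all 3 strains. Averaged over the strains, Rpa3 stood at 0.36 at 4 h and 1.30 at 24 h.

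**Figure D1:**
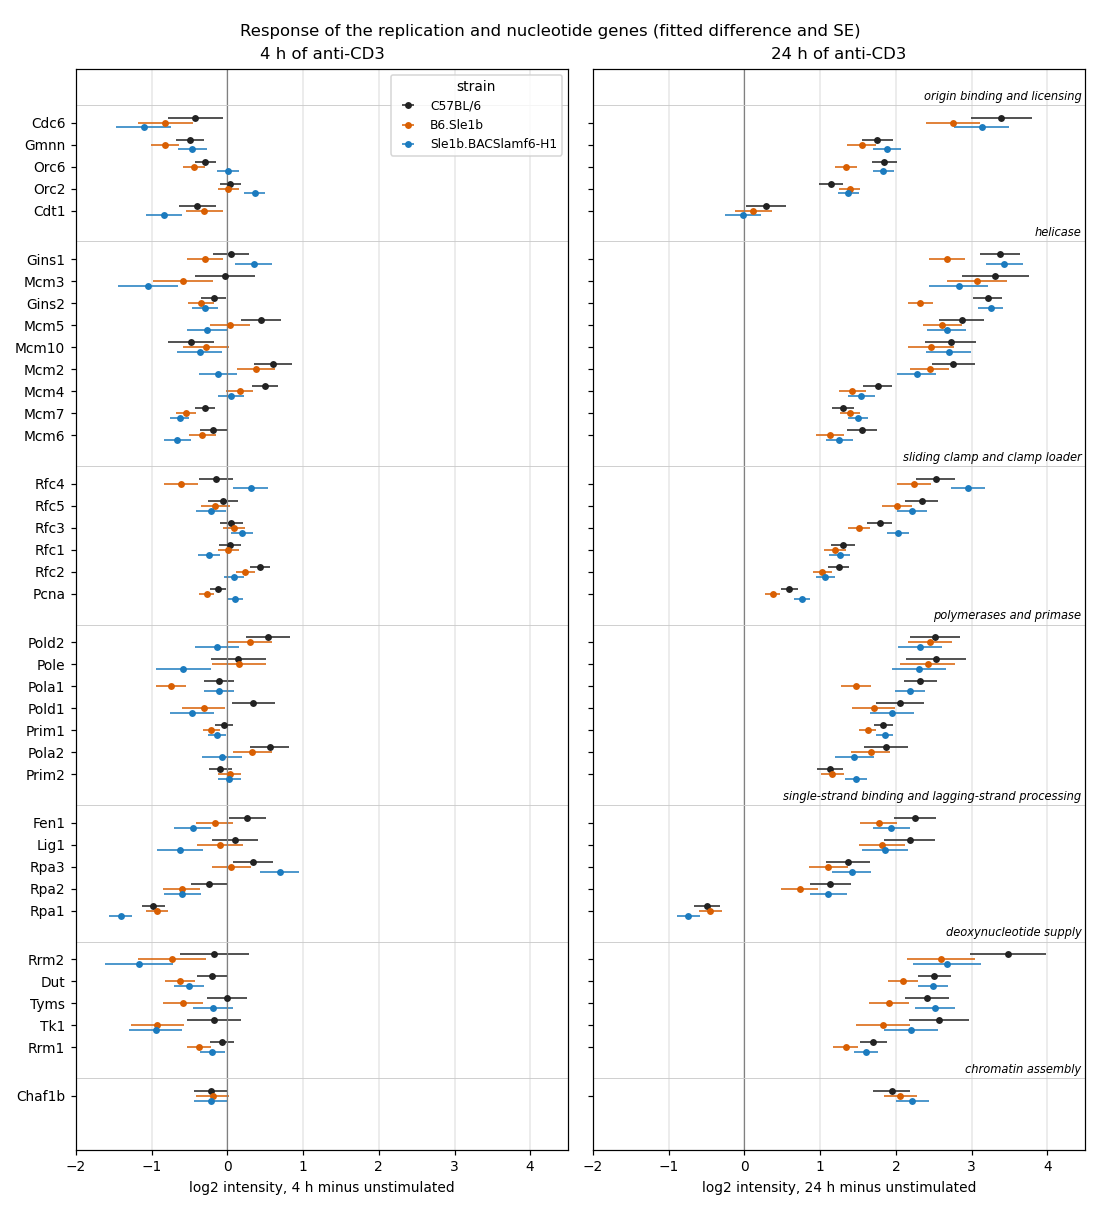
Fitted log2 difference from unstimulated cells at 4 h (left) and 24 h (right) for the 38 genes, grouped by role, with 1 point per strain and bars of 1 SE. At 4 h most points sit within 1 of 0 and many lie to the left of it; at 24 h all but Cdt1 and Rpa1 lie clearly to the right, up to 3.48 for Rrm2 in C57BL/6.

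Among the 5 genes that bind origins, license them or restrain licensing, Cdc6, Gmnn, Orc6 and Orc2 rose at 24 h in each strain. Cdt1 did not. Cdc6, the ATPase that helps to place the MCM ring, moved most. Unstimulated arrays gave Cdc6 log2 intensities of 4.89, 3.74 and 4.11 in C57BL/6, 5.62, 4.14 and 4.32 in B6.Sle1b and 4.16, 5.04 and 4.72 in Sle1b.BACSlamf6-H1. After 4 h, Cdc6 read 4.06, 3.95 and 3.47 in C57BL/6, 4.61, 3.36 and 3.64 in B6.Sle1b and 3.41, 3.29 and 3.90 in Sle1b.BACSlamf6-H1. The 24 h Cdc6 values were 7.71 and 7.57 in C57BL/6, 7.85, 7.27 and 7.23 in B6.Sle1b and 7.76, 7.55 and 8.0 in Sle1b.BACSlamf6-H1. Every 24 h array of Cdc6 stood more than 1 log2 unit above every other array, and at 4 h the Sle1b.BACSlamf6-H1 arrays lay below their unstimulated values, while those of the other strains overlapped. The rise over unstimulated cells was 3.39 ± 0.40 in C57BL/6 (adjusted p = 1.05e-06), 2.75 ± 0.36 in B6.Sle1b (3.11e-06) and 3.13 ± 0.36 in Sle1b.BACSlamf6-H1 (4.43e-07), or 10.5-fold, 6.74-fold and 8.76-fold. At 4 h the Cdc6 values of -0.42, -0.82 and -1.10 were not called (adjusted p = 0.735, 0.276 and 0.055).

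Cdt1, the partner of Cdc6 in loading the helicase, behaved differently. Unstimulated arrays gave Cdt1 log2 intensities of 9.76, 8.85 and 9.65 in C57BL/6, 9.76, 9.92 and 9.12 in B6.Sle1b and 9.84, 9.90 and 9.78 in Sle1b.BACSlamf6-H1. After 4 h, Cdt1 read 9.46, 9.0 and 8.61 in C57BL/6, 9.42, 9.49 and 8.98 in B6.Sle1b and 9.32, 8.60 and 9.09 in Sle1b.BACSlamf6-H1. The 24 h Cdt1 values were 9.63 and 9.78 in C57BL/6, 9.74, 9.72 and 9.70 in B6.Sle1b and 9.79, 9.70 and 9.96 in Sle1b.BACSlamf6-H1. Its 24 h arrays overlapped the unstimulated ones in all 3 strains, and the lowest value of each strain was at 4 h. Against unstimulated cells the 24 h difference was 0.28 ± 0.27 in C57BL/6 (adjusted p = 0.582), 0.12 ± 0.24 in B6.Sle1b (0.776) and -0.02 ± 0.24 in Sle1b.BACSlamf6-H1 (0.976), with 95% confidence intervals of -0.27 to 0.84, -0.38 to 0.62 and -0.52 to 0.48. At 4 h Cdt1 fell in Sle1b.BACSlamf6-H1 alone by the test (-0.84 ± 0.24, adjusted p = 0.0269), and that call was lost in 6 of 20 alternatives, among them without any one of its unstimulated arrays or without 4 h array 2 or 3 (-0.88 to -0.64, highest adjusted p = 0.182 without the dim 4 h array 2). The values in C57BL/6 and B6.Sle1b were -0.40 and -0.30, and no difference between strains in this response was called. A second Cdt1 probe set above background gave 0.58, 0.41 and 0.28 at 24 h, again without a call.

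Gmnn encodes geminin, which binds Cdt1 and blocks further licensing during S phase. Its 24 h change was 1.76, 1.55 and 1.88, and at 4 h it was called lower in B6.Sle1b (-0.82 ± 0.19, adjusted p = 0.00766) with values of -0.49 and -0.46 in C57BL/6 and Sle1b.BACSlamf6-H1. That call was lost in 3 of 20 alternatives. The origin recognition subunits Orc6 and Orc2 changed by 1.85, 1.34 and 1.83 and by 1.14, 1.39 and 1.37 at 24 h. At 24 h against unstimulated cells, geminin and Cdt1 messages thus differed: Gmnn passed the test upward in every strain and Cdt1 in none.

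All 9 genes grouped with the helicase rose at 24 h in all 3 strains, by 1.31 (Mcm6) to 3.16 (Gins1) averaged over the strains. Gins1 is a subunit of GINS, the complex that activates the MCM ring. Unstimulated arrays gave Gins1 log2 intensities of 4.85, 5.08 and 4.40 in C57BL/6, 5.72, 4.70 and 5.27 in B6.Sle1b and 4.5, 4.83 and 4.32 in Sle1b.BACSlamf6-H1. After 4 h, Gins1 read 4.90, 5.15 and 4.41 in C57BL/6, 5.24, 4.59 and 4.97 in B6.Sle1b and 4.60, 5.06 and 5.02 in Sle1b.BACSlamf6-H1. The 24 h Gins1 values were 8.12 and 8.18 in C57BL/6, 8.06, 8.01 and 7.64 in B6.Sle1b and 7.94, 7.83 and 8.18 in Sle1b.BACSlamf6-H1. The 24 h arrays of Gins1 were all at 7.64 or above and the rest all at 5.72 or below. Its rise was 3.37 ± 0.27 in C57BL/6 (adjusted p = 3.93e-09), 2.67 ± 0.24 in B6.Sle1b (1.39e-08) and 3.43 ± 0.24 in Sle1b.BACSlamf6-H1 (3.16e-10), or 10.4-fold, 6.39-fold and 10.8-fold. Gins2, of the same complex, changed by 3.21, 2.32 and 3.25.

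Mcm6, a subunit of the ring itself, had the smallest rise in this role averaged over the strains, though in C57BL/6 that of Mcm7 was smaller. Unstimulated arrays gave Mcm6 log2 intensities of 9.32, 8.46 and 8.96 in C57BL/6, 9.68, 9.22 and 9.0 in B6.Sle1b and 9.21, 9.19 and 9.27 in Sle1b.BACSlamf6-H1. After 4 h, Mcm6 read 9.0, 8.64 and 8.53 in C57BL/6, 9.08, 8.90 and 8.92 in B6.Sle1b and 8.68, 8.31 and 8.68 in Sle1b.BACSlamf6-H1. The 24 h Mcm6 values were 10.43 and 10.50 in C57BL/6, 10.52, 10.37 and 10.39 in B6.Sle1b and 10.42, 10.45 and 10.55 in Sle1b.BACSlamf6-H1. The 24 h arrays were clear of all others, whereas at 4 h the Sle1b.BACSlamf6-H1 arrays all lay below their unstimulated values. The 24 h change of Mcm6 was 1.55 ± 0.20 in C57BL/6 (adjusted p = 2.99e-06), 1.13 ± 0.18 in B6.Sle1b (3.55e-05) and 1.25 ± 0.18 in Sle1b.BACSlamf6-H1 (8.37e-06). At 4 h Mcm6 was called lower in Sle1b.BACSlamf6-H1 (-0.66 ± 0.18, adjusted p = 0.0195), a call lost in 4 of 20 alternatives, those without 1 of its unstimulated arrays or without the dim 4 h array 2 (-0.68 to -0.54, highest adjusted p = 0.123). The other ring subunits changed at 24 h by 2.76, 2.45 and 2.27 (Mcm2), 3.31, 3.07 and 2.83 (Mcm3), 1.76, 1.43 and 1.54 (Mcm4), 2.87, 2.62 and 2.67 (Mcm5) and 1.30, 1.40 and 1.5 (Mcm7). At their brightest probe sets the 6 subunits of 1 ring thus differed in measured response, Mcm3 and Mcm5 moving most and Mcm6 and Mcm7 least. That order depends on the probe set. In the same strain order, a second Mcm3 probe set read 4.64, 4.42 and 4.49 unstimulated and 6.00, 5.98 and 6.61 at 24 h. This was a smaller rise in each strain. A second Mcm7 probe set went from 7.51, 7.48 and 7.72 to 9.16, 9.30 and 9.26, a larger rise in each. Both lay above background in every group. Mcm10, which helps to start the fork, changed by 2.73, 2.46 and 2.70.

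At 4 h Mcm7 was the helicase gene with the most calls. It fell in B6.Sle1b (-0.55 ± 0.13, adjusted p = 0.0106) and in Sle1b.BACSlamf6-H1 (-0.63 ± 0.13, adjusted p = 0.00231), with -0.30 in C57BL/6 (adjusted p = 0.249). The first of these calls was lost in 4 of 20 alternatives and the second in none. Mcm2 and Mcm4 had values above 0 in C57BL/6 at that time (0.60 and 0.50), and neither was called.

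The clamp and its loader all rose at 24 h, but PCNA, the clamp itself and a widely used label of proliferating cells, rose least of all 36. Unstimulated arrays gave Pcna log2 intensities of 11.37, 11.53 and 11.40 in C57BL/6, 11.46, 11.49 and 11.74 in B6.Sle1b and 11.21, 11.20 and 11.23 in Sle1b.BACSlamf6-H1. After 4 h, Pcna read 11.20, 11.43 and 11.29 in C57BL/6, 11.26, 11.21 and 11.40 in B6.Sle1b and 11.33, 11.40 and 11.21 in Sle1b.BACSlamf6-H1. The 24 h Pcna values were 12.09 and 11.96 in C57BL/6, 11.99, 11.94 and 11.88 in B6.Sle1b and 11.90, 11.91 and 12.12 in Sle1b.BACSlamf6-H1. The 24 h arrays of each strain lay above all its earlier arrays, yet by a small distance. Its change was 0.59 ± 0.11 in C57BL/6 (adjusted p = 0.000323), 0.37 ± 0.10 in B6.Sle1b (0.00652) and 0.76 ± 0.10 in Sle1b.BACSlamf6-H1 (2.93e-06), or 1.5-fold, 1.3-fold and 1.69-fold. Pcna is read by 1 probe set. Fitted on the groups compared alone, the Pcna calls in C57BL/6 and B6.Sle1b were lost (adjusted p = 0.0521 and 0.0969), while all 20 alternatives kept that in Sle1b.BACSlamf6-H1.

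Rfc4, a subunit of the loader, rose most in this role. Unstimulated arrays gave Rfc4 log2 intensities of 5.95, 6.74 and 6.10 in C57BL/6, 6.99, 5.85 and 6.57 in B6.Sle1b and 5.50, 5.72 and 5.90 in Sle1b.BACSlamf6-H1. After 4 h, Rfc4 read 6.05, 6.20 and 6.10 in C57BL/6, 6.30, 5.48 and 5.80 in B6.Sle1b and 5.86, 6.10 and 6.09 in Sle1b.BACSlamf6-H1. The 24 h Rfc4 values were 8.81 and 8.77 in C57BL/6, 8.72, 8.72 and 8.68 in B6.Sle1b and 8.63, 8.63 and 8.73 in Sle1b.BACSlamf6-H1. No Rfc4 array at 24 h came within 1 log2 unit of an earlier one. The change was 2.52 ± 0.26 in C57BL/6 (adjusted p = 1.09e-07), 2.24 ± 0.23 in B6.Sle1b (8.48e-08) and 2.95 ± 0.23 in Sle1b.BACSlamf6-H1 (1.24e-09). Rfc5, Rfc3, Rfc1 and Rfc2 followed with 2.34, 2.01 and 2.22, 1.79, 1.51 and 2.03, 1.30, 1.19 and 1.26 and 1.24, 1.03 and 1.07. Rfc2 was also the sole member called higher at 4 h. Its C57BL/6 arrays read 7.19, 6.75 and 7.10 unstimulated and 7.40, 7.42 and 7.52 at 4 h, without overlap, a change of 0.43 ± 0.13 (adjusted p = 0.0439). The values in B6.Sle1b and Sle1b.BACSlamf6-H1 were 0.24 and 0.08, and the C57BL/6 call was lost in 10 of 20 alternatives, over which the value ran from 0.30 to 0.52. No member was called higher without unstimulated array 2 or 3 or without any one of the 4 h arrays of C57BL/6.

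The 7 genes of the polymerases and primase rose in every strain. Pold2, the accessory subunit of polymerase delta, moved most on average. Unstimulated arrays gave Pold2 log2 intensities of 6.35, 5.58 and 6.37 in C57BL/6, 6.57, 6.51 and 5.36 in B6.Sle1b and 6.24, 6.44 and 6.21 in Sle1b.BACSlamf6-H1. After 4 h, Pold2 read 6.72, 6.79 and 6.39 in C57BL/6, 6.75, 6.76 and 5.84 in B6.Sle1b and 6.60, 5.63 and 6.25 in Sle1b.BACSlamf6-H1. The 24 h Pold2 values were 8.68 and 8.54 in C57BL/6, 8.73, 8.54 and 8.54 in B6.Sle1b and 8.63, 8.60 and 8.61 in Sle1b.BACSlamf6-H1. The 24 h arrays lay between 8.54 and 8.73, and the earlier ones were spread over more than 1 log2 unit. Pold2 rose by 2.52 ± 0.33 in C57BL/6 (adjusted p = 3e-06), 2.46 ± 0.29 in B6.Sle1b (7.45e-07) and 2.32 ± 0.29 in Sle1b.BACSlamf6-H1 (1.4e-06). The catalytic subunits of polymerases delta (Pold1), epsilon (Pole) and alpha (Pola1) changed by 2.06, 1.71 and 1.95, 2.53, 2.42 and 2.31 and 2.32, 1.48 and 2.18.

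Prim2, the large primase subunit, rose least in this role averaged over the strains. Unstimulated arrays gave Prim2 log2 intensities of 5.51, 5.92 and 5.45 in C57BL/6, 5.61, 5.48 and 5.34 in B6.Sle1b and 5.22, 5.24 and 5.45 in Sle1b.BACSlamf6-H1. After 4 h, Prim2 read 5.49, 5.41 and 5.70 in C57BL/6, 5.58, 5.36 and 5.58 in B6.Sle1b and 4.98, 5.49 and 5.51 in Sle1b.BACSlamf6-H1. The 24 h Prim2 values were 6.88 and 6.62 in C57BL/6, 6.80, 6.61 and 6.49 in B6.Sle1b and 6.86, 6.61 and 6.86 in Sle1b.BACSlamf6-H1. All 24 h values of Prim2 were above all earlier ones. The change was 1.13 ± 0.17 in C57BL/6 (adjusted p = 2.11e-05), 1.16 ± 0.15 in B6.Sle1b (2.97e-06) and 1.47 ± 0.15 in Sle1b.BACSlamf6-H1 (8.27e-08), against 1.83, 1.63 and 1.85 for its catalytic partner Prim1 and 1.87, 1.66 and 1.45 for the polymerase alpha subunit Pola2. At 4 h Pola1 was called lower in B6.Sle1b (-0.74 ± 0.20, adjusted p = 0.0236), where the unstimulated arrays read 6.08, 5.15 and 5.47 and the 4 h arrays 5.15, 4.49 and 4.82. The call was lost in 4 of 20 alternatives, and Pola1 measured -0.11 in C57BL/6 and -0.11 in Sle1b.BACSlamf6-H1.

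Single-strand binding gave the main exception. Rpa1 encodes the largest subunit of RPA, the trimer that coats unwound DNA, and it fell. Unstimulated arrays gave Rpa1 log2 intensities of 10.39, 9.92 and 10.28 in C57BL/6, 10.17, 10.34 and 9.74 in B6.Sle1b and 10.44, 10.52 and 10.56 in Sle1b.BACSlamf6-H1. After 4 h, Rpa1 read 9.41, 9.23 and 9.0 in C57BL/6, 9.30, 9.28 and 8.88 in B6.Sle1b and 9.13, 8.95 and 9.21 in Sle1b.BACSlamf6-H1. The 24 h Rpa1 values were 9.73 and 9.67 in C57BL/6, 9.67, 9.63 and 9.59 in B6.Sle1b and 9.73, 9.77 and 9.81 in Sle1b.BACSlamf6-H1. At both times every stimulated array lay below every unstimulated array of its strain, with the 4 h arrays lowest. At 4 h the change was -0.98 ± 0.15 in C57BL/6 (adjusted p = 0.000121), -0.93 ± 0.15 in B6.Sle1b (0.000272) and -1.41 ± 0.15 in Sle1b.BACSlamf6-H1 (1.19e-06). At 24 h it was -0.50 ± 0.17 in C57BL/6 (adjusted p = 0.0334), -0.45 ± 0.15 in B6.Sle1b (0.0259) and -0.74 ± 0.15 in Sle1b.BACSlamf6-H1 (0.00046), and from 4 h to 24 h Rpa1 rose by 0.48, 0.48 and 0.67 (adjusted p = 0.047, 0.0223 and 0.00151).

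Rpa1 was the only member called in all 3 strains at 4 h. Of 20 alternatives in each strain, 1 lost that call, in B6.Sle1b fitted on its own groups (adjusted p = 0.0806). The 24 h fall held in all 20 alternatives in Sle1b.BACSlamf6-H1 but was lost in 6 of 19 in C57BL/6 and in 7 of 20 in B6.Sle1b. In C57BL/6 these were median centring, the fit on its own groups and the fits without unstimulated array 1 or 3 or either 24 h array (-0.52 to -0.40 for the latter 4). In B6.Sle1b they were the same 2 settings and the fits without unstimulated array 1 or 2 or any 24 h array (-0.47 to -0.32). A second single-symbol probe set for Rpa1 read -0.43, -0.44 and -0.54 at 24 h and was called in Sle1b.BACSlamf6-H1 (adjusted p = 0.018 over all probe sets, against 0.121 and 0.0597 in C57BL/6 and B6.Sle1b). The rise from 4 h to 24 h was lost in 9 of 19 alternatives in C57BL/6, among them without 4 h array 2 or 3 or either 24 h array (0.38 to 0.51), and in 4 of 20 in B6.Sle1b, among them without 4 h array 3 or 24 h array 1 or 2 (0.34 to 0.48). Another 2 probe sets that list Rpa1 together with a further symbol were left out.

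The partners of Rpa1 in the trimer rose. Rpa3 changed by 1.36, 1.11 and 1.42 and Rpa2 by 1.13, 0.73 and 1.11 at 24 h, each called in every strain, and at 4 h Rpa2 stood at -0.24, -0.60 and -0.60 and Rpa3 at 0.34, 0.05 and 0.69 without a call. The Rpa2 rise in B6.Sle1b was lost in 6 of 20 alternatives (0.48 to 1.04 over all of them, highest adjusted p = 0.141, without unstimulated array 3), that in C57BL/6 in 1 of 19 (adjusted p = 0.0535, without 24 h array 1) and that in Sle1b.BACSlamf6-H1 in none of 20. A second Rpa2 probe set gave 0.50, 0.37 and 0.62 at 24 h and was not called. So on these arrays the message of 1 subunit moved against that of the other two at 24 h.

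Fen1, the flap nuclease that trims Okazaki fragments, rose most in the lagging-strand group averaged over the strains. Unstimulated arrays gave Fen1 log2 intensities of 7.0, 6.20 and 6.53 in C57BL/6, 7.52, 6.75 and 6.36 in B6.Sle1b and 6.79, 6.93 and 6.60 in Sle1b.BACSlamf6-H1. After 4 h, Fen1 read 6.74, 7.03 and 6.73 in C57BL/6, 7.02, 6.61 and 6.48 in B6.Sle1b and 6.59, 5.82 and 6.53 in Sle1b.BACSlamf6-H1. The 24 h Fen1 values were 8.86 and 8.80 in C57BL/6, 8.83, 8.61 and 8.5 in B6.Sle1b and 8.59, 8.70 and 8.86 in Sle1b.BACSlamf6-H1. Its 24 h arrays were all at 8.5 or above and none of the others exceeded 7.52. The rise was 2.25 ± 0.27 in C57BL/6 (adjusted p = 1.29e-06), 1.77 ± 0.24 in B6.Sle1b (5.84e-06) and 1.94 ± 0.24 in Sle1b.BACSlamf6-H1 (1.46e-06), and Lig1, the ligase that seals the fragments and the larger riser in B6.Sle1b, changed by 2.18, 1.82 and 1.85.

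All 5 genes of deoxynucleotide supply rose at 24 h. Rrm2, the regulated small subunit of ribonucleotide reductase, had the largest rise of any member in C57BL/6. Unstimulated arrays gave Rrm2 log2 intensities of 5.90, 4.32 and 5.22 in C57BL/6, 6.73, 5.72 and 5.32 in B6.Sle1b and 5.43, 6.21 and 6.02 in Sle1b.BACSlamf6-H1. After 4 h, Rrm2 read 5.64, 5.25 and 4.04 in C57BL/6, 6.03, 4.97 and 4.58 in B6.Sle1b and 4.47, 4.32 and 5.35 in Sle1b.BACSlamf6-H1. The 24 h Rrm2 values were 8.59 and 8.66 in C57BL/6, 8.95, 8.30 and 8.30 in B6.Sle1b and 8.52, 8.26 and 8.90 in Sle1b.BACSlamf6-H1. The unstimulated and 4 h arrays of Rrm2 were scattered widely, over 1.57 and 1.60 log2 units within C57BL/6, but none reached the 24 h values. The change was 3.48 ± 0.50 in C57BL/6 (adjusted p = 1.28e-05), 2.59 ± 0.45 in B6.Sle1b (9.89e-05) and 2.68 ± 0.45 in Sle1b.BACSlamf6-H1 (5.93e-05), or 11.2-fold, 6.02-fold and 6.39-fold. A second Rrm2 probe set gave 2.19, 1.98 and 2.10.

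Rrm1, the large subunit of the same enzyme, rose less. Unstimulated arrays gave Rrm1 log2 intensities of 7.44, 7.42 and 6.95 in C57BL/6, 7.75, 7.31 and 7.59 in B6.Sle1b and 7.09, 7.34 and 7.56 in Sle1b.BACSlamf6-H1. After 4 h, Rrm1 read 7.25, 7.28 and 7.06 in C57BL/6, 7.36, 7.03 and 7.13 in B6.Sle1b and 6.85, 7.22 and 7.33 in Sle1b.BACSlamf6-H1. The 24 h Rrm1 values were 8.96 and 8.98 in C57BL/6, 9.05, 8.69 and 8.92 in B6.Sle1b and 8.93, 8.79 and 9.09 in Sle1b.BACSlamf6-H1. Here too the 24 h arrays were separate from the rest. The Rrm1 change was 1.70 ± 0.18 in C57BL/6 (adjusted p = 2.33e-07), 1.34 ± 0.16 in B6.Sle1b (1.07e-06) and 1.61 ± 0.16 in Sle1b.BACSlamf6-H1 (6.49e-08). Dut, which removes dUTP, changed by 2.51, 2.10 and 2.49, the thymidylate synthase gene Tyms by 2.41, 1.91 and 2.52 and the salvage kinase gene Tk1 by 2.57, 1.82 and 2.20. All 5 had fitted values below 0 at 4 h in all 3 strains, from -0.01 (Tyms in C57BL/6) to -1.17 (Rrm2 in Sle1b.BACSlamf6-H1), and none was called.

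Chaf1b, the middle subunit of the chaperone that deposits histones on new DNA, stood for chromatin assembly. Unstimulated arrays gave Chaf1b log2 intensities of 4.2, 4.19 and 3.98 in C57BL/6, 4.27, 4.02 and 3.38 in B6.Sle1b and 3.70, 3.97 and 3.94 in Sle1b.BACSlamf6-H1. After 4 h, Chaf1b read 4.04, 4.07 and 3.61 in C57BL/6, 3.90, 3.79 and 3.40 in B6.Sle1b and 3.32, 3.81 and 3.82 in Sle1b.BACSlamf6-H1. The 24 h Chaf1b values were 6.19 and 5.96 in C57BL/6, 6.28, 5.71 and 5.86 in B6.Sle1b and 6.00, 5.79 and 6.46 in Sle1b.BACSlamf6-H1. The 24 h values were above all others by more than 1 log2 unit. Chaf1b rose by 1.95 ± 0.24 in C57BL/6 (adjusted p = 1.97e-06), 2.06 ± 0.22 in B6.Sle1b (1.43e-07) and 2.22 ± 0.22 in Sle1b.BACSlamf6-H1 (4.17e-08).

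**Figure D2:**
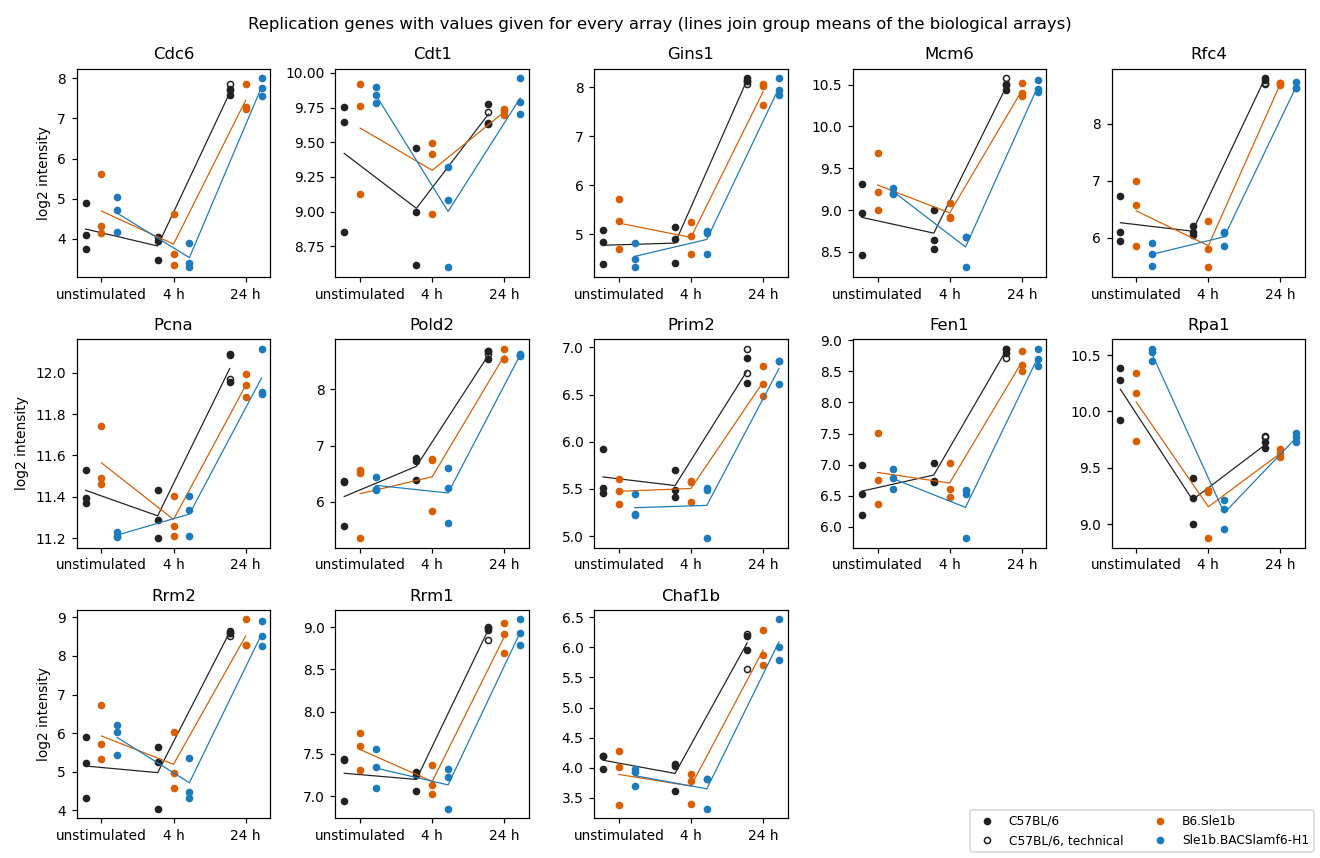
Log2 intensity of the 13 genes given array by array, by time and strain, with each point 1 array, open circles the technical arrays and lines through group means of the biological arrays. Cdc6, Gins1 and Rrm2 climb between 4 h and 24 h, Pcna climbs little on its narrow axis, Cdt1 returns to its unstimulated range and Rpa1 stays below it. The vertical axes differ between panels.

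The 22 members with more than 1 probe set had 30 others, adjusted here over all probe sets. Of these, 7 lay at background in all 9 groups and say nothing of the gene. Among the other 23, 16 were called higher at 24 h in all 3 strains, 1 in a single strain (Mcm5, at background in 8 groups) and 6 in none. The 6 were those of Rpa1, Cdt1 and Rpa2 described above and dim probe sets of Tyms and Mcm10, which lay at background in 1 to 8 groups. The share of all probe sets called is not given here, so these counts stand without that comparison. With all probe sets of a gene averaged, Tyms was still called higher, but by 0.71, 0.49 and 0.66 in C57BL/6, B6.Sle1b and Sle1b.BACSlamf6-H1, the lowest values it took under any alternative.

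The other replication genes, a list of 39 with no member in it, of which 33 were measured, moved mostly with the members. At 24 h, 26 were called higher and 1 lower in C57BL/6 (all genes 15.7% and 8.60%). In B6.Sle1b these were 24 and 1 (all genes 14.8% and 13.4%) and in Sle1b.BACSlamf6-H1 26 and 1 (all genes 17.2% and 11.9%). The medians were 1.19, 1.06 and 1.02. Cdc45, the third part of the active helicase beside MCM and GINS, changed by 2.63, 2.37 and 2.77. Dna2, a nuclease of the lagging strand, changed by 2.72, 2.02 and 2.62 and Clspn, the checkpoint mediator claspin, by 2.70, 1.93 and 2.34. Mcm8, a relative of the MCM subunits that works in recombination, lay at background in unstimulated C57BL/6 and Sle1b.BACSlamf6-H1, so its rise there was at least 4.2-fold and at least 5.13-fold, and 2.11 ± 0.22 on the log2 scale in B6.Sle1b. The 1 gene that fell in every strain was Dbf4, the activating subunit of the Cdc7 kinase that fires origins, at -0.90, -0.77 and -0.60 (adjusted p = 4.16e-05, 5.96e-05 and 0.000816). It had already fallen by 4 h, with -1.03, -0.89 and -0.91. At 4 h the list held 2 higher and 1 lower in C57BL/6 (all genes 4.08% and 2.97%). In B6.Sle1b it held 1 and 1 (all genes 2.57% and 3.12%) and in Sle1b.BACSlamf6-H1 2 and 3 (all genes 4.22% and 6.35%). Counts this small among 33 genes are near those shares. Pole2, the accessory subunit of polymerase epsilon, was already higher at 4 h in all 3 strains (1.61, 1.17 and 1.47); it was singled out after its values were seen.

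Of 32 further genes of nucleotide supply, 25 were measured. At 24 h, 19, 20 and 20 were called higher in C57BL/6, B6.Sle1b and Sle1b.BACSlamf6-H1 (all genes 15.7%, 14.8% and 17.2%). Called lower were 0, 2 and 0 (all genes 8.60%, 13.4% and 11.9%). The medians were 1.28, 1.19 and 1.55. Dctd, which makes dUMP from dCMP, lay at background in all unstimulated groups and was higher by at least 9.72-fold, 8.74-fold and 12.5-fold. Cad, which catalyses the first steps of pyrimidine synthesis, changed by 3.26, 3.27 and 2.66. Shmt2 and Mthfd1, which feed one-carbon units into purines and thymidylate, changed by 2.62, 2.63 and 2.78 and by 2.47, 2.52 and 2.48. The 2 that fell did so in B6.Sle1b only by the test, Tk2, the mitochondrial thymidine kinase, at -0.93 ± 0.34 (adjusted p = 0.0433) and Cmpk1, a cytosolic nucleotide kinase, at -0.29 ± 0.11 (adjusted p = 0.0481). Tk2 read -0.46 and -0.86 in C57BL/6 and Sle1b.BACSlamf6-H1, and Cmpk1 -0.22 and -0.13, and no gene of the table was called for a difference between the 24 h responses of B6.Sle1b and C57BL/6. At 4 h, 3, 2 and 4 genes of this list were called higher (all genes 4.08%, 2.57% and 4.22%). None was called lower (all genes 2.97%, 3.12% and 6.35%). Samhd1, which breaks deoxynucleotides down, and Prps1, which makes the sugar phosphate for nucleotides, were the ones called in all 3 strains, at 1.92, 1.67 and 1.59 and at 0.70, 0.51 and 0.57.

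The regulators of entry into S phase, 21 genes and all measured, included both directions. At 24 h, 13, 12 and 13 were called higher in C57BL/6, B6.Sle1b and Sle1b.BACSlamf6-H1 (all genes 15.7%, 14.8% and 17.2%). Called lower were 3, 4 and 4 (all genes 8.60%, 13.4% and 11.9%). The medians were 1.28, 0.93 and 1.02. Myc rose by 3.01, 2.65 and 2.85 and Tfdp1, the dimer partner of E2F factors, by 2.37, 2.24 and 2.33. The cyclins Ccne2 and Ccna2, which drive Cdk2 through S phase, rose by 2.40, 1.30 and 2.40 and by 1.99, 1.45 and 1.81. Genes known to restrain the cycle went both ways. The Cdk inhibitor genes Cdkn1b and Cdkn1a changed by -1.79, -2.13 and -1.98 and by -1.22, -1.21 and -0.89, and the pocket protein genes Rb1 and Rbl2 by -0.94, -0.95 and -1.10 and by -0.88, -1.58 and -1.44, Rbl2 in C57BL/6 without a call (adjusted p = 0.132). Rbl1, which encodes the pocket protein p107, was called higher in every strain, at 1.44, 1.17 and 1.02, and the Cdk inhibitor gene Cdkn2c was not called, at 0.27, 0.09 and 0.20.

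Some of these regulators had already been called by 4 h in all 3 strains. Myc was higher by 2.30, 2.23 and 2.25 and Rbl1 by 1.80, 1.60 and 1.21. Cdkn1b and Cdkn1a were at -0.76, -0.66 and -0.76 and at -0.71, -0.70 and -1.03, all called lower. Ccne2 was called lower in C57BL/6 and B6.Sle1b (-0.91 and -1.19, with -0.33 in Sle1b.BACSlamf6-H1) and Cdk2 in Sle1b.BACSlamf6-H1 (-0.93, with -0.27 and -0.59 in the others).

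The design also asks whether the Sle1b interval, or the artificial chromosome added to it, alters these genes. With all arrays weighted equally, no member was called between strains at any time. For B6.Sle1b against C57BL/6 the count was 0 of 38 unstimulated, at 4 h and at 24 h (all genes 0.123%, 0.0409% and 0.0409%). The same count was found for Sle1b.BACSlamf6-H1 against B6.Sle1b (all genes 0.0819%, 0.00% and 0.00%) and against C57BL/6 (all genes 0.0585%, 0.0643% and 0.0351%), and in the means over the 3 times (all genes 0.333%, 0.0819% and 0.228%). So few genes of any kind were called that a count of 0 among 38 is close to the background. With array weights the counts of 0 changed in 3 of these 12 comparisons: 27 members were called for unstimulated B6.Sle1b against C57BL/6, all higher (all genes 15.3%), 29 for unstimulated Sle1b.BACSlamf6-H1 against B6.Sle1b, 28 of them lower (all genes 23.5%), and 2 for the latter pair over the mean of the times (all genes 0.831%). Those weights had not fully converged, and array 1 of unstimulated B6.Sle1b carried the largest, 8.71. At an unadjusted p under 0.05 in the equally weighted fit there were 4, 1 and 1 members for B6.Sle1b against C57BL/6 unstimulated, at 4 h and at 24 h, where 4.14%, 3.61% and 4.71% of all genes passed. For Sle1b.BACSlamf6-H1 against B6.Sle1b there were 9, 4 and 0 (all genes 8.13%, 3.59% and 5.31%), and against C57BL/6 5, 4 and 0 (all genes 5.66%, 5.77% and 2.29%). Over the mean of the times the 3 pairs held 0, 4 and 4 (all genes 5.11%, 6.09% and 6.86%). Mcm3, Mcm6, Orc2 and Prim2 lie on chromosome 1, as the Sle1b interval does, and none of the 4 was called with equal weights.

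The absence of a call does not show that the strains were alike. The 95% confidence interval of a strain difference, not adjusted over genes, had a median half-width of 0.46 in log2 units unstimulated and at 4 h, and for single genes it reached 0.94. For unstimulated B6.Sle1b against C57BL/6 the limits over the 38 members reached from -0.69 to 1.72. At 24 h the differences themselves were small, -0.53 to 0.17 for B6.Sle1b against C57BL/6 and -0.29 to 0.22 for Sle1b.BACSlamf6-H1 against C57BL/6, with a median half-width of 0.52.

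Most members at an unadjusted p under 0.05 were found in unstimulated Sle1b.BACSlamf6-H1 against B6.Sle1b, where 8 of the 9 were lower. Orc6 differed by -0.53 ± 0.14 (95% confidence interval -0.83 to -0.24, adjusted p = 0.308) and Tyms by -0.84 ± 0.26 (95% confidence interval -1.38 to -0.29, adjusted p = 0.394). The Orc6 arrays read 7.13, 6.74 and 6.95 in B6.Sle1b and 6.34, 6.63 and 6.26 in Sle1b.BACSlamf6-H1, without overlap, while the Tyms arrays, 7.20, 5.91 and 6.69 against 5.53, 5.90 and 5.86, were likewise apart but touched at 5.91 and 5.90. The lowest adjusted p of any member between strains was that of Rfc3 over the mean of the 3 times, at -0.32 ± 0.09 (95% confidence interval -0.50 to -0.15, adjusted p = 0.282). At 4 h Mcm7 differed between Sle1b.BACSlamf6-H1 and C57BL/6 by -0.46 ± 0.13 (95% confidence interval -0.73 to -0.19, adjusted p = 0.289).

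The changes over time on the antibody, here called responses, were compared between strains as well. Of the 6 differences between responses, at 4 h and 24 h for each pair of strains, none held a called member, and of all 17097 genes 1 was called in 1 of them (B6.Sle1b to Sle1b.BACSlamf6-H1 at 24 h, 0.00585%; the other 5 were at 0.00%). At an unadjusted p under 0.05 the 4 h differences held 1 member for B6.Sle1b minus C57BL/6, 5 for Sle1b.BACSlamf6-H1 minus B6.Sle1b and 0 for Sle1b.BACSlamf6-H1 minus C57BL/6 (all genes 2.20%, 5.28% and 3.88%), and those at 24 h held 3, 7 and 0 (all genes 4.80%, 5.11% and 1.84%). With array weights 13 members were called at 4 h (all genes 7.66%) and 2 at 24 h (all genes 0.942%) for B6.Sle1b minus C57BL/6, and 12 at 24 h for Sle1b.BACSlamf6-H1 minus B6.Sle1b (all genes 7.38%). With equal weights Gins2 had the lowest adjusted p among the members: its 24 h rise in B6.Sle1b minus that in C57BL/6 was -0.89 ± 0.25 (95% confidence interval -1.42 to -0.36, adjusted p = 0.743), and that in Sle1b.BACSlamf6-H1 minus that in B6.Sle1b was 0.93 ± 0.24 (95% confidence interval 0.43 to 1.42, adjusted p = 0.529). Gins2 read 5.27, 4.57 and 5.10 in unstimulated and 7.73, 7.14 and 7.05 in 24 h B6.Sle1b cells, against 4.77, 4.49 and 4.62 and then 7.88 and 7.79 in C57BL/6. At its brightest probe set Gins2 thus rose less in B6.Sle1b, by values that the test across all genes did not call. A second Gins2 probe set, at background in 2 of the 9 groups, read 3.42, 3.496 and 3.16 in unstimulated C57BL/6, B6.Sle1b and Sle1b.BACSlamf6-H1. At 24 h it read 6.64, 6.43 and 6.48 in the same order. There the B6.Sle1b rise was again the smallest, but by less than at the brightest probe set. Both differences between responses share the B6.Sle1b arrays. The median member differed by -0.28 in the first of these comparisons and by 0.21 in the second, against -0.05 and 0.03 for all genes.

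Across the 38 members the 24 h changes of one strain followed those of another closely. Pearson's r across genes was 0.958 for C57BL/6 and B6.Sle1b, 0.957 for C57BL/6 and Sle1b.BACSlamf6-H1 and 0.940 for the congenic pair, and the largest gap was 0.93 (Gins2). At 4 h r was 0.783, 0.507 and 0.572. These are descriptions across genes read on the same arrays, and genes are not independent replicates.

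**Figure D3:**
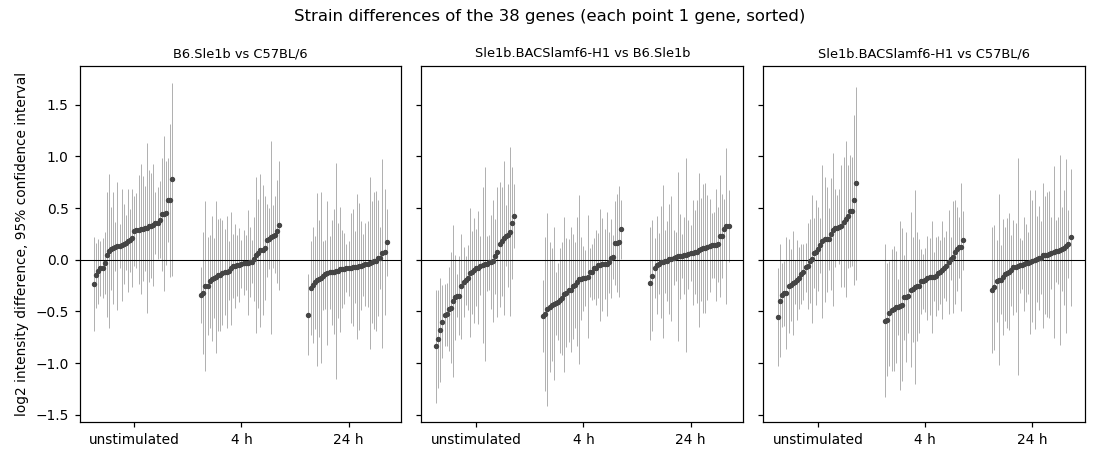
Log2 difference between strains for each of the 38 genes with its unadjusted 95% confidence interval, sorted within each time, in 1 panel per pair of strains. Most intervals cross 0, the points spread most in unstimulated cells, where they run from -0.84 to 0.78, and none was called in this fit with equal array weights.

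Within a group the members often shifted together from array to array. Matching counts over all genes are not given here, so such shifts may be shared by other genes. Array 1 of unstimulated B6.Sle1b was the highest of its group for 32 of the 38 members, and its mean over the members was 7.08 against 6.58 and 6.38 in arrays 2 and 3. The arrays numbered 1 were also highest for 29 members at 4 h and for 33 at 24 h in this strain, with means of 6.65 against 6.34 and 6.21 and of 8.55 against 8.29 and 8.28. Array 3 of Sle1b.BACSlamf6-H1 at 24 h was highest for 32, and array 3 of C57BL/6 at 4 h was lowest for 28. The dim array 2 of unstimulated C57BL/6 was lowest for 23 members, the dim array 3 of unstimulated B6.Sle1b for 24 and the dim array 2 of Sle1b.BACSlamf6-H1 at 4 h for 24. Beside this, 32 of the 38 members had a fitted value above 0 in unstimulated B6.Sle1b against C57BL/6, with a median of 0.24 against 0.02 for all genes. The 24 h means, 8.28 to 8.57, were all more than 1 log2 unit above the 6.06 to 7.08 of the earlier arrays.

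Several counts at 4 h and between unstimulated strains depended on single arrays. The share of all genes called in these refits is not given here, so the changes may not be particular to the members. Without array 1 of unstimulated B6.Sle1b, the members called lower at 4 h in that strain went from 4 to 1, without array 2 of the same group to 8 and without 4 h array 2 to 2. Without the 3 dim arrays together there were 9 in B6.Sle1b and 2 in C57BL/6, against 4 and 1. In Sle1b.BACSlamf6-H1 the count at 4 h went from 4 to 2 without unstimulated array 2 or 3 or 4 h array 2. Without array 2 of unstimulated B6.Sle1b, 2 members were called between unstimulated Sle1b.BACSlamf6-H1 and B6.Sle1b. The counts called higher at 24 h were 35 or 36 of 38 in each strain whichever of its arrays was left out.

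**Figure D4:**
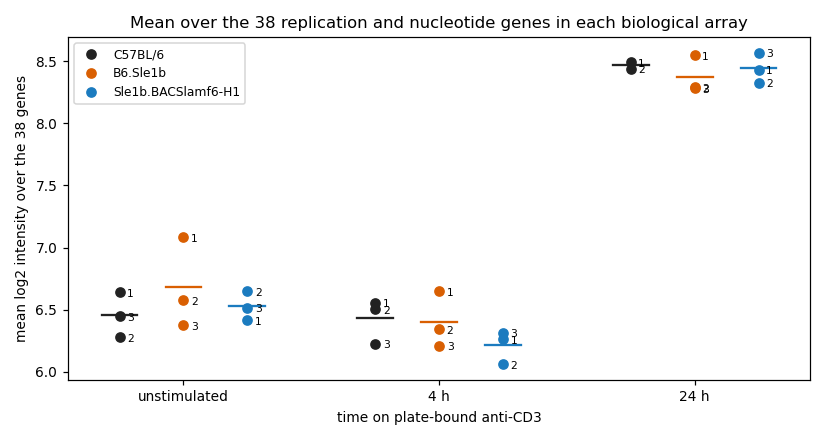
Mean log2 intensity over the 38 genes in each biological array, numbered as in the labels, by time and strain, with a bar at each group's mean. All 24 h arrays lie at 8.28 or above and all earlier ones at 7.08 or below; array 1 is the highest of the 3 in B6.Sle1b at each time.

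Markers of other cells moved with time and strain, and their part in the members' changes was not tested. All 3 plasma cell markers measured of 4 listed were called lower at 24 h in each strain (all genes 8.60%, 13.4% and 11.9%). The mean log2 of these markers went from 8.79, 9.26 and 9.08 unstimulated to 7.13, 7.60 and 7.68 at 24 h in C57BL/6, B6.Sle1b and Sle1b.BACSlamf6-H1. Of these, Xbp1 is also made by T cells, and Tnfrsf17 lay at background in 4 of the 9 groups. The mean of the 7 neutrophil markers, all measured, was 4.00, 3.82 and 3.45 in C57BL/6 over the 3 times, against 5.19, 4.83 and 4.88 in B6.Sle1b and 5.56, 5.17 and 4.70 in Sle1b.BACSlamf6-H1. The 2 CD8 T cell markers stood at 3.89 to 4.23, the 6 B cell markers measured of 7 at 4.96 to 5.70 over all groups, the 3 NK cell markers at 4.34 to 5.06, the 4 erythroid markers of 6 at 4.75 to 6.11, the 5 monocyte and macrophage markers at 3.46 to 3.99 and the 3 dendritic cell markers of 4 at 3.24 to 3.49, with Xcr1 at background in all 9 groups. The T cell list itself went from 9.66 to 9.16 in C57BL/6, from 9.70 to 9.21 in B6.Sle1b and from 9.68 to 9.16 in Sle1b.BACSlamf6-H1 by 24 h.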

How the data were processed

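RNA of 28 samples was hybridised to Affymetrix arrays. Per the submitters' processing notes RMA was used, and the deposited values are intensities on a linear scale; no version of it is given in the sources used here. This method summarises a gene from several probes and equalises arrays, which can compress differences near background. Here log2 of the deposited intensity was taken, with no pseudocount and no filter on low values. Of 45141 probe sets, 28898 carried 1 gene symbol, 551 several and 15692 none; 28689 had an Entrez identifier found in RefSeq GRCm38.p6. Each of 17097 genes was read at its brightest probe set. Background was the 95th percentile of 23 nonspecific control probe sets on each array.

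The analysis used R 4.3.3 with limma 3.58.1 (lmFit and eBayes, 9 group means, 26 biological arrays, p-values adjusted over all genes by Benjamini-Hochberg) and Python 3.11.15; the fit was tested on simulated data. The number of arrays limits the precision. The members and lists were chosen with earlier results of these data known. Array values are given for Pcna and, in each role, for the members with the largest and smallest absolute 24 h change averaged over strains; of each further list, up to 4 called genes with the largest rise and up to 4 with the largest fall are named, with the E2F-list genes called at 4 h. Rfc2, Orc6, Tyms, Gins2, Pola1, Pole2, Samhd1 and Prps1 were given values after theirs were seen. Alternatives varied normalization, centring, spread estimate, array weights and brightness, probe set rule, dim genes, technical arrays, replicate block and single arrays. Same-numbered arrays of a strain deviated together (r over 0.1) in 15 of 25 pairs, against 11 of 50 differently numbered pairs. Within a time these counts were 12 of 25 and 20 of 50. The labels do not say that a number is shared between groups, so the main fit used no pairing. Whether the numbers mark a shared origin within a strain is not known.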

Additional observations from a re-analysis of the deposited data

How the results depend on the processing

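Of 782 recomputed counts, 731 stayed within 1.5 times the reported one and 51 moved. The counts include the comparisons between strains and between responses, reported at 0 members. The 731 therefore partly hold counts of 0 that stayed 0 and are no measure of robustness there. Why the 51 moved was not tested. Except for array weights, the share of all genes called in each refit is not given here. Members called higher at 24 h numbered 35 to 36, 34 to 37 and 36 in C57BL/6, B6.Sle1b and Sle1b.BACSlamf6-H1 over all alternatives, and between 4 h and 24 h 35 to 38, 36 to 38 and 36 to 38. For members called higher at 4 h in C57BL/6 (1 as reported) the count was 4 after quantile normalizing again, 0 with median centring, an intensity trend, every probe set tested or only the groups compared, 3 with array weights, 5 with array brightness as a covariate and 0 to 2 leaving out 1 array. For members called lower at 4 h in C57BL/6 (1) it was 3 with array weights and 2 without the 3 dim arrays. In B6.Sle1b (4 lower at 4 h) it was 25 with array weights, 9 with brightness as a covariate, 9 without the dim arrays, 0 with only the groups compared and 1 to 8 leaving out 1 array. In Sle1b.BACSlamf6-H1 (0 higher and 4 lower at 4 h) 1 was higher and 7 lower with only the groups compared, and 0 to 1 and 2 to 5 leaving out 1 array. The single member lower at 24 h, Rpa1, became 0 with median centring or only the groups compared in C57BL/6 and in B6.Sle1b, and 0 to 1 leaving out 1 array. Between strains (0 as reported), array weights gave 27 for unstimulated B6.Sle1b against C57BL/6, 29 for unstimulated Sle1b.BACSlamf6-H1 against B6.Sle1b and 2 for the latter pair over the mean of the times. Brightness as a covariate gave 1 for that pair in each case, and leaving out 1 array gave 0 to 2 unstimulated. For differences between responses, array weights gave 13 at 4 h and 2 at 24 h for B6.Sle1b minus C57BL/6, and 12 at 24 h for Sle1b.BACSlamf6-H1 minus B6.Sle1b. The array weights had not fully converged and gave array 1 of unstimulated B6.Sle1b a weight of 8.71. The replicate number as a fixed block moved none of these counts beyond 1.5 times. Strain and number as a random block (consensus correlation 0.15) gave 1 member higher at 4 h in Sle1b.BACSlamf6-H1 in place of 0. Scaling alternatives shifted the median of all genes by at most 0.07 in log2.

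Signal over background limits readings of the dim probe sets, and 2 or 3 arrays a group limit the precision of differences between strains.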
